A study of Mus musculus with 24 samples.

Results

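The genes that let calcium into the cell when its stores are empty, release it from those stores and pump it away were followed in TM3 cells, an established Leydig cell line from the testis of an immature mouse. They are the channel genes Orai1, Orai2 and Orai3, the store sensors Stim1 and Stim2, the release channels Itpr1, Itpr2 and Itpr3, the store pump Atp2a2 and the plasma membrane pump Atp2b1. The members were chosen by name, and their probes are those whose RefSeq transcript accession belongs to one of the names. This gave 10 genes with 20 probes out of 56605 probes, of which 34566 carried a symbol and stood for 23787 genes. Cells were held in suspension in cuvettes and were either sham-treated or given a nanosecond pulsed electric field (nsPEF) of 80 pulses, each 60 ns wide, of 5.5 kV at 14 kV/cm. RNA was taken at 0, 4 and 24 h, so that there were 6 groups, sham and nsPEF at each time, with 4 arrays each and 24 arrays in all. All groups, sham included, were washed, taken up in Annexin V binding buffer, strained through a nylon mesh and put into the cuvettes, so the controls carry the handling too. Every group comes from this 1 cell line. The study's methods call the 4 samples of a group biological replicates and describe the assays of a replicate as run side by side on cells from a shared suspension, while the labels give a number and tie it to no suspension or culture.

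Calcium is kept at a high level inside the endoplasmic reticulum and at a low level in the cytosol. When a hormone or growth factor makes inositol trisphosphate, the receptors encoded by the Itpr genes open and let stored calcium out. The Stim proteins span the membrane of the reticulum, sense the fall of calcium inside it and open the Orai channels of the plasma membrane, which is called store-operated entry. SERCA2, the product of Atp2a2, pumps calcium back into the store, and PMCA1, the product of Atp2b1, pumps it out of the cell. In Leydig cells calcium acts beside cyclic AMP in the control of steroid synthesis. RefSeq places the entry genes on GRCm38.p6 with Orai1 at chr5:123015074-123030452, Orai2 at chr5:136147456-136170697, Orai3 at chr7:127769815-127775150, Stim1 at chr7:102261514-102437319 and Stim2 at chr5:53998523-54121057. The release channels lie with Itpr1 at chr6:108213083-108551116, Itpr2 at chr6:146108299-146502258 and Itpr3 at chr17:27057002-27122223, and the pumps with Atp2a2 at chr5:122453513-122502225 and Atp2b1 at chr10:98914630-99026143.

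Every value below is a relative log2 signal, which is the log2 of a probe's processed signal minus the 75th percentile of its array, and a value of 0 means that the probe was as bright as that percentile. Probes differ in how strongly they bind, so levels are compared between groups within a probe and never between probes. Tested were the 37687 probes that rose well above background in 2 or more of the 4 arrays of some group, and a difference was called at an adjusted p under 0.05 by limma, with the adjustment made over all of them. Of the 20 member probes 19 were tested, and the probe left out was Itpr2 A_52_P494207. Well above background on all 24 arrays were 17 of the 20 member probes.

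The 75th percentile of the arrays lay between 201.8 and 532.7 intensity units. Well above background were 57.5% to 62.1% of the probes in sham samples and 51.2% to 57.2% in nsPEF samples. Each time point had a slide to itself with its 8 arrays, and within a slide sham and nsPEF samples filled separate rows, so neither slide and time nor place and treatment can be told apart. Of 8 Leydig cell markers on the array, Star, Cyp17a1, Nr5a1 and Scarb1 were well above background on all arrays. Cyp11a1, Hsd17b3 and Lhcgr were so on no array and Hsd3b1 on 1. Of markers of other testis cells, 2 of 6 for Sertoli cells (Sox9 and Wt1), 1 of 5 for germ cells (Tnp1), 2 of 4 for macrophages (Csf1r and Cd68), 1 of 4 for endothelium (Pecam1) and 2 of 4 for peritubular myoid cells (Acta2 and Cnn1) were above background on all arrays, whereas Dhh, Cdh5 and Tek were on none. Their part in the results was not tested.

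The question of the time comparisons was how the transcripts moved in the hours after handling. By the study's account the cells were in the cuvettes only during exposure, and the later time points followed standard culture. It also sets a prolonged preparation before the 0 h samples against a quick harvest at 4 h and 24 h. Time after handling and these culture and harvest conditions cannot be told apart. At 4 h the release channel genes Itpr1 and Itpr2 and the entry genes Orai2, Orai3 and Stim1 were lower than at 0 h, and Orai1, Itpr3, Atp2a2 and Atp2b1 were higher, where Itpr2 was called by 1 probe near the background. No 4 h array showed that probe well above background, so the call of Itpr2 is not independent of the filter. Stim2 was the only member gene with no probe called. In the sham cells 16 of the 19 tested member probes passed the test, 7 higher and 9 lower, and they belonged to 9 of the 10 genes. Of all tested probes 59.1% passed it in the same comparison, and 69.6% did of the 24699 that every array showed well above background. The median size of the difference was 0.62 for the member probes and 0.47 for all probes tested. In the nsPEF cells 15 of the 19 member probes passed, 7 higher and 8 lower, beside 61.3% of all probes, with a median size of 0.53 against 0.51. The arrays measure the share of each transcript in bulk RNA, so fewer cells of a kind and less RNA per cell cannot be told apart. None of the called differences at 4 h against 0 h changed its sign under any other scaling of the arrays.

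**Figure D1:**
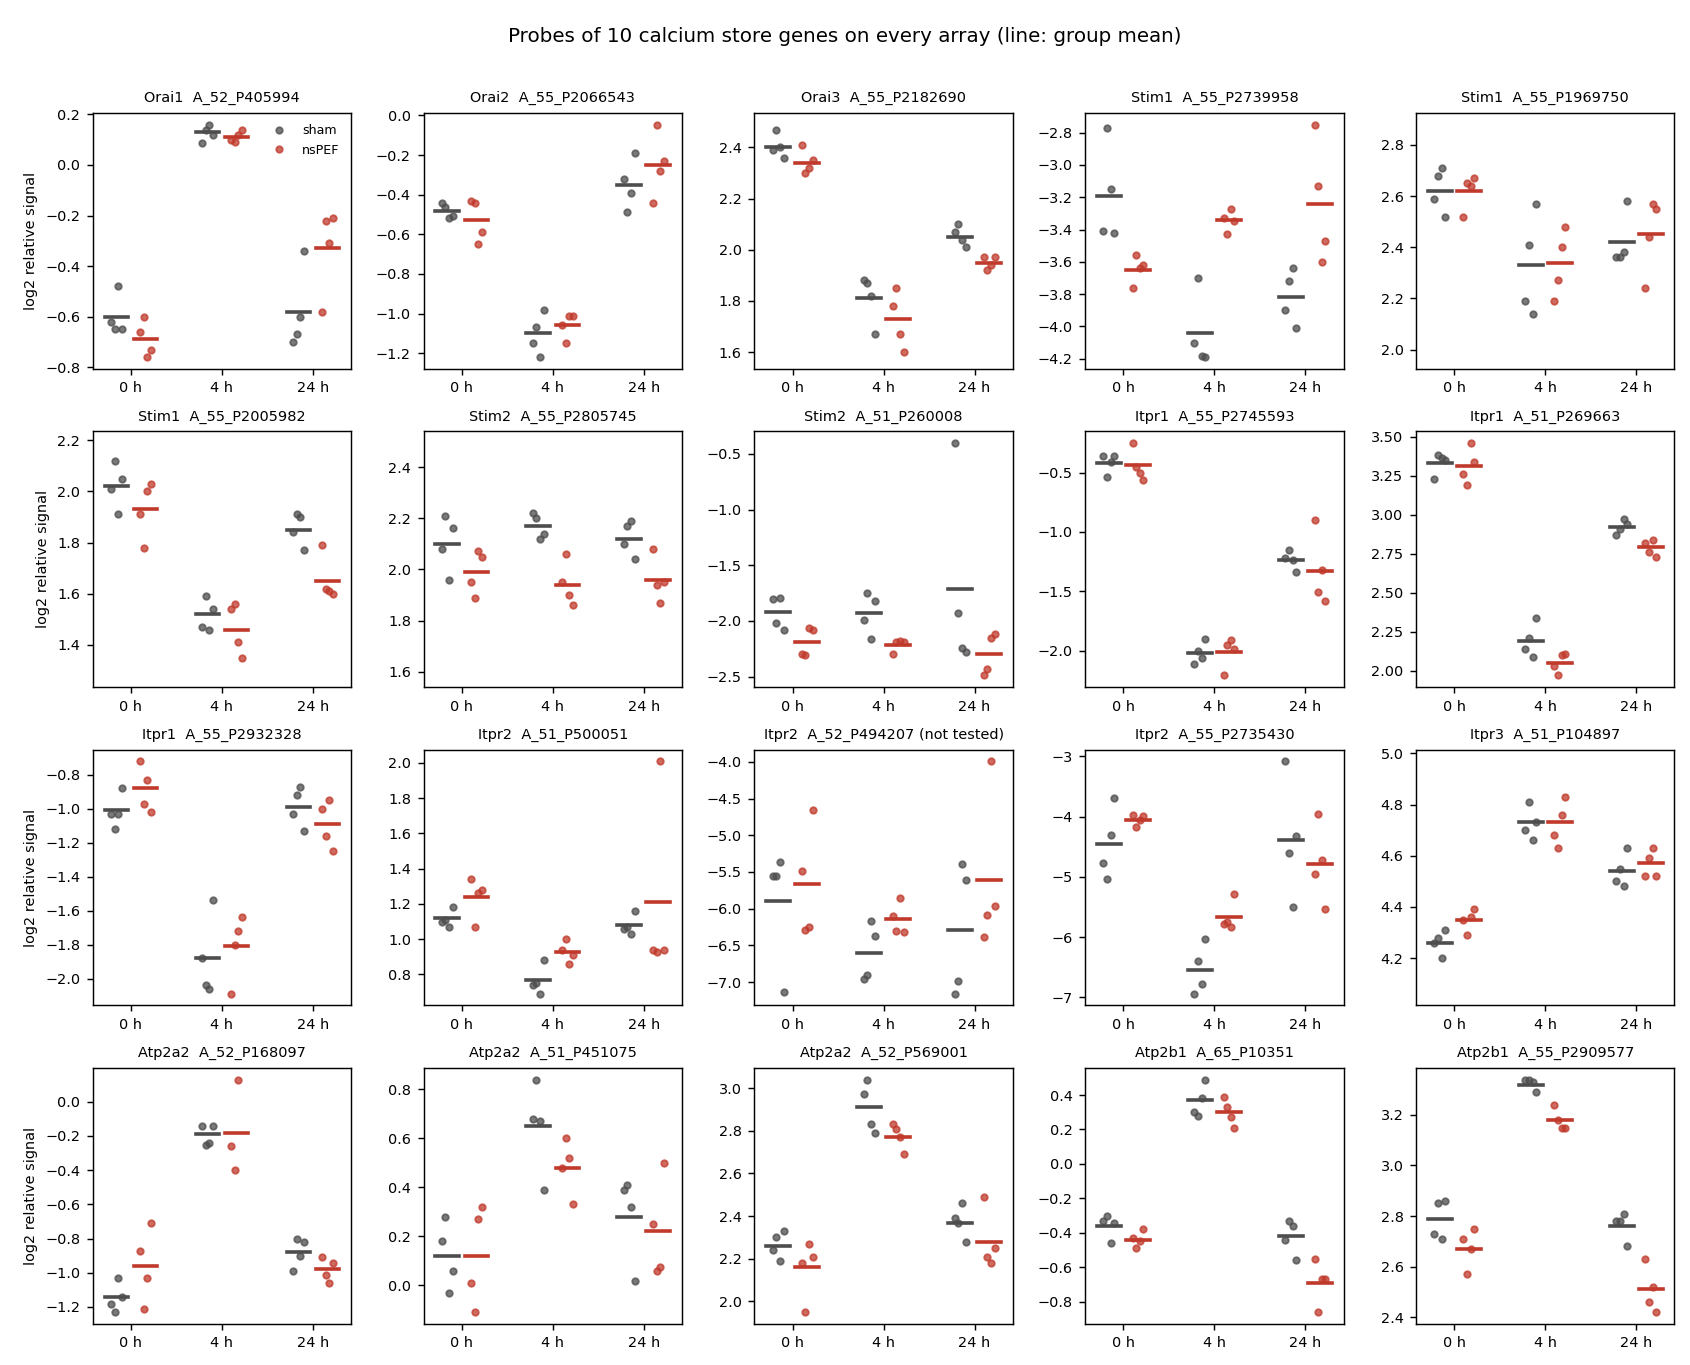
Relative log2 signal of each of the 20 member probes on every array, by hours after treatment, with sham arrays in grey and nsPEF arrays in red. Points are arrays and lines are group means of 4 arrays (3 for nsPEF at 4 h in Atp2a2 A_52_P168097), each panel has its own vertical scale, and the sham and nsPEF points of a time lie close together in most panels while 0 h and 4 h lie apart.

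The 3 Orai genes encode the pore of store-operated entry, and Orai1 moved the opposite way from the other two at 4 h, in sham and nsPEF cells alike. The stretches of genome at their starts are printed as a description of the 3 genes. Whether they bear on the direction of the changes was not tested. They are windows of 300 bases from RefSeq on the build GRCm38.p6, read 5′ to 3′ along the gene. Capitals mark matches on either strand to the CCAAT box (CCAAT), the GC box (GGGCGG) or the E-box (CACGTG). No match was found for the cyclic AMP response element (TGACGTCA) or the AP-1 site (TGANTCA).
Orai1, chr5:123014824-123015123, plus strand: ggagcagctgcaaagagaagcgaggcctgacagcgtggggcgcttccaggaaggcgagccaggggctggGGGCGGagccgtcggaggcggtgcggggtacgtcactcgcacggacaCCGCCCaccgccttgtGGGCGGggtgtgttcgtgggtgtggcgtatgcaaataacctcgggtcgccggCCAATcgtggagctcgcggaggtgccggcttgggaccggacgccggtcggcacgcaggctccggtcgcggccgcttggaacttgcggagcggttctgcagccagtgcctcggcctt
Orai2, chr5:136170607-136170906, minus strand: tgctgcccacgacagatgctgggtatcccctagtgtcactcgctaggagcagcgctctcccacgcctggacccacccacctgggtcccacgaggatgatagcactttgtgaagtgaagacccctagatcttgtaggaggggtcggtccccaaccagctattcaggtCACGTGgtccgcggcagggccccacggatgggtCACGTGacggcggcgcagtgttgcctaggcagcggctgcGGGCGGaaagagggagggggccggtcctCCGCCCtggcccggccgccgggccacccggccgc
Orai3, chr7:127769565-127769864, plus strand: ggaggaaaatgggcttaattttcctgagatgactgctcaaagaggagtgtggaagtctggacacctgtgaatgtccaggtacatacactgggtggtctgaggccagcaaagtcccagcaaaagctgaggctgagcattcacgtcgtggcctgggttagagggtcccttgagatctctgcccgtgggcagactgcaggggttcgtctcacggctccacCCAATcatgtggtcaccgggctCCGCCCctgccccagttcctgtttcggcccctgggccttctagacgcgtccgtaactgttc

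The Orai1 window held 3 GC boxes and 1 CCAAT box, the Orai2 window 2 GC boxes and 2 E-boxes, and the Orai3 window 1 GC box and 1 CCAAT box. A GC box was present in 35.7% of the 32851 windows of all genes, a CCAAT box in 37.4% and an E-box in 7.15%, so the first 2 are common. Windows were found for 8 of the 10 member genes, with 2 for Atp2b1, and none is given for Itpr1 and Atp2a2. All 9 member windows held a GC box and 3 held an E-box, those of Orai2, Itpr3 and Atp2b1, of which Orai2 was lower at 4 h and the other 2 genes were higher. The GC content of the member windows ran from 57.7% to 79.3%, beside a median of 52.7% over all windows. A match of letters describes the window and is not a binding site.

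Orai1, which forms the main pore of this entry in many cells, was measured by probe A_52_P405994. Orai1 stood on the sham arrays at -0.62, -0.65, -0.48 and -0.65 (0 h), 0.087, 0.14, 0.16 and 0.12 (4 h) and -0.70, -0.67, -0.60 and -0.34 (24 h). Orai1 in nsPEF cells stood at -0.66, -0.60, -0.76 and -0.73 (0 h), 0.10, 0.09, 0.12 and 0.14 (4 h) and -0.58, -0.22, -0.31 and -0.21 (24 h). Every 4 h array lay above every 0 h and every 24 h array. It rose by 0.73 ± 0.079 (SE; 95% interval 0.56 to 0.89; adjusted p = 8.3e-08) from 0 h to 4 h in sham cells, which is 1.66-fold, and by 0.80 ± 0.079 (adjusted p = 2.2e-08) in nsPEF cells. In sham cells its difference between 24 h and 0 h was 0.024 (interval -0.14 to 0.19), which was not called. In nsPEF cells it was still higher by 0.35 ± 0.079 (adjusted p = 0.00124) at 24 h than at 0 h.

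Orai2 and Orai3, the other channel subunits, were each measured by 1 probe. Orai2 stood on the sham arrays at -0.44, -0.46, -0.52 and -0.51 (0 h), -1.15, -1.07, -1.22 and -0.98 (4 h) and -0.32, -0.49, -0.39 and -0.19 (24 h). Orai2 in nsPEF cells stood at -0.43, -0.44, -0.65 and -0.59 (0 h), -1.06, -1.15, -1.01 and -1.01 (4 h) and -0.44, -0.046, -0.28 and -0.23 (24 h). The 4 h arrays lay below all the others. Orai2 fell by 0.62 ± 0.078 in sham (adjusted p = 7.8e-07) and by 0.53 ± 0.078 in nsPEF cells (adjusted p = 6.4e-06) between 0 h and 4 h, and was higher at 24 h than at 0 h by 0.28 ± 0.078 in nsPEF cells (adjusted p = 0.00742). The difference of 0.13 in sham cells between 24 h and 0 h did not pass (adjusted p = 0.193). Orai3 stood on the sham arrays at 2.39, 2.47, 2.40 and 2.36 (0 h), 1.88, 1.87, 1.82 and 1.67 (4 h) and 2.07, 2.10, 2.04 and 2.01 (24 h). Orai3 in nsPEF cells stood at 2.41, 2.30, 2.32 and 2.35 (0 h), 1.78, 1.85, 1.67 and 1.60 (4 h) and 1.97, 1.92, 1.94 and 1.97 (24 h). For Orai3 the order of the times was 0 h, then 24 h, then 4 h in both treatments, with no overlap between neighbours. Orai3 fell by 0.60 ± 0.055 in sham cells (adjusted p = 8.0e-09) and by 0.62 ± 0.055 in nsPEF cells (adjusted p = 4.5e-09) at 4 h. It was still lower than at 0 h at 24 h, with differences of -0.35 ± 0.055 and -0.39 ± 0.055 (adjusted p = 4.5e-05 and 9.9e-06).

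Stim1, the main sensor of the store, had 3 probes to the same transcript, and they did not all move alike. The probe A_55_P2739958 was dim, with group means between 21.52 and 31.46 intensity units, although well above background on all arrays. The group means of the other 2 ran from 1335 to 1882 units for A_55_P1969750 and from 734.2 to 1171 for A_55_P2005982. The probe A_55_P2005982 stood on the sham arrays at 2.01, 2.12, 1.91 and 2.05 (0 h), 1.47, 1.59, 1.46 and 1.54 (4 h) and 1.84, 1.91, 1.90 and 1.77 (24 h). The probe A_55_P2005982 in nsPEF cells stood at 1.91, 1.78, 2.00 and 2.03 (0 h), 1.54, 1.56, 1.41 and 1.35 (4 h) and 1.79, 1.62, 1.61 and 1.60 (24 h). The 4 h arrays were the lowest in both treatments. It fell by 0.51 ± 0.066 (adjusted p = 1.2e-06) in sham cells and by 0.47 ± 0.066 (adjusted p = 3.6e-06) in nsPEF cells at 4 h, and A_55_P1969750 fell by 0.29 ± 0.093 (adjusted p = 0.0104) and 0.28 ± 0.093 (adjusted p = 0.0129). Without the arrays numbered 2 neither fall of A_55_P1969750 was called (-0.30 and -0.25; adjusted p = 0.0534 and 0.0997), nor was that in sham cells without those numbered 3 (-0.20, adjusted p = 0.145) or that in nsPEF cells with spike-in scaling (-0.17, adjusted p = 0.115). Its difference of -0.20 between 24 h and 0 h in sham cells was not called (adjusted p = 0.0945) and passed with the replicate number as a block (adjusted p = 0.0472), with array weights (-0.23, adjusted p = 0.00861), without sham 24 h replicate 4 (-0.26, adjusted p = 0.0478) and without the arrays numbered 4 (-0.29, adjusted p = 0.0195), while with spike-in scaling it was 0.53 (adjusted p = 3.1e-05). The dim probe fell by 0.85 ± 0.16 (adjusted p = 1.3e-04) in sham cells, while in nsPEF cells its 4 h value differed from 0 h by 0.30 ± 0.16 upward, which did not pass (adjusted p = 0.113). At 24 h against 0 h the dim probe was lower by 1.55-fold in sham cells (adjusted p = 0.00467) and higher by 1.33-fold in nsPEF cells (adjusted p = 0.049), and the latter call was lost on leaving out 18 of the 24 arrays in turn (adjusted p from 0.05 to 0.196).

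Stim2, the second sensor, which responds to smaller losses of stored calcium, had 2 probes. The brighter, A_55_P2805745, lay between 1.96 and 2.22 on the sham arrays and between 1.86 and 2.08 on the nsPEF arrays over all times. Its differences between 4 h and 0 h were 0.064 (interval -0.067 to 0.20) in sham and -0.045 (interval -0.18 to 0.086) in nsPEF cells. The other probe, A_51_P260008, lay between -2.49 and -1.75 on 23 arrays and at -0.40 on 1 array, sham at 24 h replicate 1. Neither probe was called in any of the 9 comparisons. For A_51_P260008 the interval of the sham difference at 4 h against 0 h reached from -0.56 to 0.55.

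Among the release channels, Itpr1, the type 1 receptor for inositol trisphosphate, was lower at 4 h by all of its 3 probes. The probe A_51_P269663 stood on the sham arrays at 3.23, 3.38, 3.36 and 3.35 (0 h), 2.14, 2.21, 2.09 and 2.34 (4 h) and 2.87, 2.91, 2.97 and 2.94 (24 h). The probe A_51_P269663 in nsPEF cells stood at 3.26, 3.19, 3.46 and 3.34 (0 h), 2.03, 1.97, 2.10 and 2.11 (4 h) and 2.82, 2.76, 2.84 and 2.73 (24 h). The order was 0 h, then 24 h, then 4 h, with no overlap between the times. This probe fell by 1.13 ± 0.06 in sham cells, which is 2.19-fold (adjusted p = 1.5e-12), and by 1.26 ± 0.06 in nsPEF cells, which is 2.4-fold (adjusted p = 2.7e-13). The probe A_55_P2745593 stood on the sham arrays at -0.36, -0.54, -0.41 and -0.36 (0 h), -2.11, -2.00, -2.06 and -1.90 (4 h) and -1.22, -1.15, -1.24 and -1.34 (24 h). The probe A_55_P2745593 in nsPEF cells stood at -0.25, -0.45, -0.50 and -0.56 (0 h), -2.21, -1.95, -1.91 and -1.99 (4 h) and -0.90, -1.51, -1.32 and -1.58 (24 h). The levels again ran in the order 0 h, 24 h, 4 h without overlap. The differences of A_55_P2745593 were -1.60 ± 0.11 in sham and -1.57 ± 0.11 in nsPEF cells, which are 3.03-fold and 2.98-fold falls (adjusted p = 1.1e-10 and 1.4e-10). The probe A_55_P2932328 fell by 0.87 ± 0.11 and by 0.93 ± 0.11 (adjusted p = 1.4e-06 and 5.2e-07). The 3 probes differed at 24 h. In sham cells A_55_P2745593 was still lower than at 0 h by 1.77-fold and A_51_P269663 by 1.32-fold (adjusted p = 8.5e-06 and 2.5e-05), whereas A_55_P2932328 differed by 0.025 (interval -0.21 to 0.26).

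Itpr2, the type 2 receptor, had 3 probes, of which A_55_P2735430 was near the background and A_52_P494207 was too dim to be tested. The probe A_51_P500051 stood on the sham arrays at 1.10, 1.11, 1.07 and 1.18 (0 h), 0.74, 0.75, 0.69 and 0.88 (4 h) and 1.06, 1.07, 1.03 and 1.16 (24 h). The probe A_51_P500051 in nsPEF cells stood at 1.34, 1.07, 1.26 and 1.28 (0 h), 0.94, 1.00, 0.86 and 0.91 (4 h) and 0.94, 0.93, 2.01 and 0.94 (24 h). The 4 h arrays lay below the 0 h arrays in both treatments, and 1 array, nsPEF at 24 h replicate 3, lay far above the other 3 of its group. The differences at 4 h against 0 h were -0.35 ± 0.16 in sham cells and -0.31 ± 0.16 in nsPEF cells and were not called (adjusted p = 0.0632 and 0.0958). All groups share one estimate of the spread, and without nsPEF 24 h replicate 3 the same differences had an adjusted p of 2.0e-05 and 8.0e-05. The probe A_55_P2735430 was well above background on 2 of 4 sham and 2 of 4 nsPEF arrays at 0 h and on 0 of 8 at 4 h, so the size of its change is uncertain. With each 4 h array set at the lowest signal of any probe well above background on it, the probe was 1.75-fold lower at 4 h than at 0 h in sham cells and 1.57-fold lower in nsPEF cells. These are not strict bounds, since the 0 h means include arrays below background. By limma on the measured signals both falls were called (adjusted p = 1.2e-04 and 0.0014). The probe was tested only because of arrays at 0 h and 24 h, so these calls are not independent of the filter. With normexp background correction the nsPEF difference did not pass (-0.15, adjusted p = 0.385).

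Itpr3, the type 3 receptor, moved against the other 2 receptors. Itpr3 stood on the sham arrays at 4.26, 4.28, 4.20 and 4.31 (0 h), 4.70, 4.81, 4.66 and 4.73 (4 h) and 4.50, 4.55, 4.48 and 4.63 (24 h). Itpr3 in nsPEF cells stood at 4.35, 4.29, 4.36 and 4.39 (0 h), 4.68, 4.63, 4.76 and 4.83 (4 h) and 4.52, 4.59, 4.63 and 4.52 (24 h). The 0 h arrays lay below all the others. It rose by 0.46 ± 0.05 (adjusted p = 9.0e-08) in sham cells and by 0.38 ± 0.05 (adjusted p = 1.7e-06) in nsPEF cells at 4 h, and was still higher than at 0 h at 24 h, by 0.27 ± 0.05 and 0.22 ± 0.05 (adjusted p = 2.5e-04 and 0.00179).

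Atp2a2, which refills the store, rose at 4 h by each of 3 probes. The probe A_52_P569001 stood on the sham arrays at 2.24, 2.30, 2.19 and 2.33 (0 h), 2.97, 3.04, 2.83 and 2.79 (4 h) and 2.39, 2.37, 2.46 and 2.28 (24 h). The probe A_52_P569001 in nsPEF cells stood at 2.18, 1.95, 2.27 and 2.21 (0 h), 2.83, 2.81, 2.77 and 2.69 (4 h) and 2.49, 2.21, 2.18 and 2.25 (24 h). The 4 h arrays lay above all the others. It rose by 0.65 ± 0.076 (adjusted p = 3.2e-07) in sham and by 0.62 ± 0.076 (adjusted p = 5.8e-07) in nsPEF cells, which are 1.57-fold and 1.54-fold. The probe A_52_P168097 lies near the edge of the array and had a marked spot on 1 array, nsPEF at 4 h replicate 1, which the fit left out. It rose by 0.95 ± 0.10 in sham cells (adjusted p = 1.3e-07) and by 0.78 ± 0.11 in nsPEF cells (adjusted p = 5.2e-06, 3 arrays at 4 h). The third probe, A_51_P451075, rose by 0.52 ± 0.12 and 0.36 ± 0.12 (adjusted p = 9.7e-04 and 0.0148), and the rise in nsPEF cells was not called without nsPEF 0 h replicate 2 (0.28, adjusted p = 0.0611), nor with the percentile taken over probes detected on all arrays (0.27, adjusted p = 0.0519) or with centring by spot row (0.28, adjusted p = 0.0586). At 24 h against 0 h no probe of Atp2a2 was called in either treatment. The smallest adjusted p was 0.0518, for A_52_P168097 in sham cells (0.26 ± 0.10). It passed without any 1 of 6 of the 24 arrays, namely sham 0 h replicate 3, nsPEF 0 h replicates 2 and 4, nsPEF 4 h replicates 3 and 4 and sham 24 h replicate 1, with an adjusted p from 0.0196 to 0.0482, and without the arrays numbered 4 (0.25, adjusted p = 0.048). It also passed with the replicate number as a block (adjusted p = 0.0365), array weights (0.00962), only the arrays compared (0.0143), the percentile over probes detected on all arrays (0.025), a filter of all 4 arrays (0.0453), an intensity trend (0.045) and spike-in scaling, under which the difference was 1.00 (1.8e-07).

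Atp2b1, which extrudes calcium through the plasma membrane, rose at 4 h by both of its probes. The probe A_55_P2909577 stood on the sham arrays at 2.73, 2.85, 2.71 and 2.86 (0 h), 3.34, 3.34, 3.33 and 3.29 (4 h) and 2.78, 2.78, 2.81 and 2.68 (24 h). The probe A_55_P2909577 in nsPEF cells stood at 2.71, 2.57, 2.67 and 2.75 (0 h), 3.24, 3.18, 3.15 and 3.15 (4 h) and 2.63, 2.46, 2.52 and 2.42 (24 h). The 4 h arrays were the highest in both treatments, and the nsPEF arrays at 24 h lay below the sham arrays at 24 h. The probe A_65_P10351 stood on the sham arrays at -0.33, -0.30, -0.46 and -0.34 (0 h), 0.30, 0.28, 0.38 and 0.49 (4 h) and -0.44, -0.33, -0.36 and -0.56 (24 h). The probe A_65_P10351 in nsPEF cells stood at -0.43, -0.49, -0.45 and -0.38 (0 h), 0.39, 0.33, 0.27 and 0.21 (4 h) and -0.55, -0.86, -0.67 and -0.67 (24 h). The pattern was that of the first probe, except that the 24 h arrays of sham and nsPEF overlapped by 1 array. At 4 h A_55_P2909577 rose by 0.54 ± 0.053 in sham and 0.50 ± 0.053 in nsPEF cells (adjusted p = 2.2e-08 and 5.8e-08), and A_65_P10351 by 0.72 ± 0.067 and 0.74 ± 0.067 (adjusted p = 9.3e-09 and 6.2e-09).

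**Figure D2:**
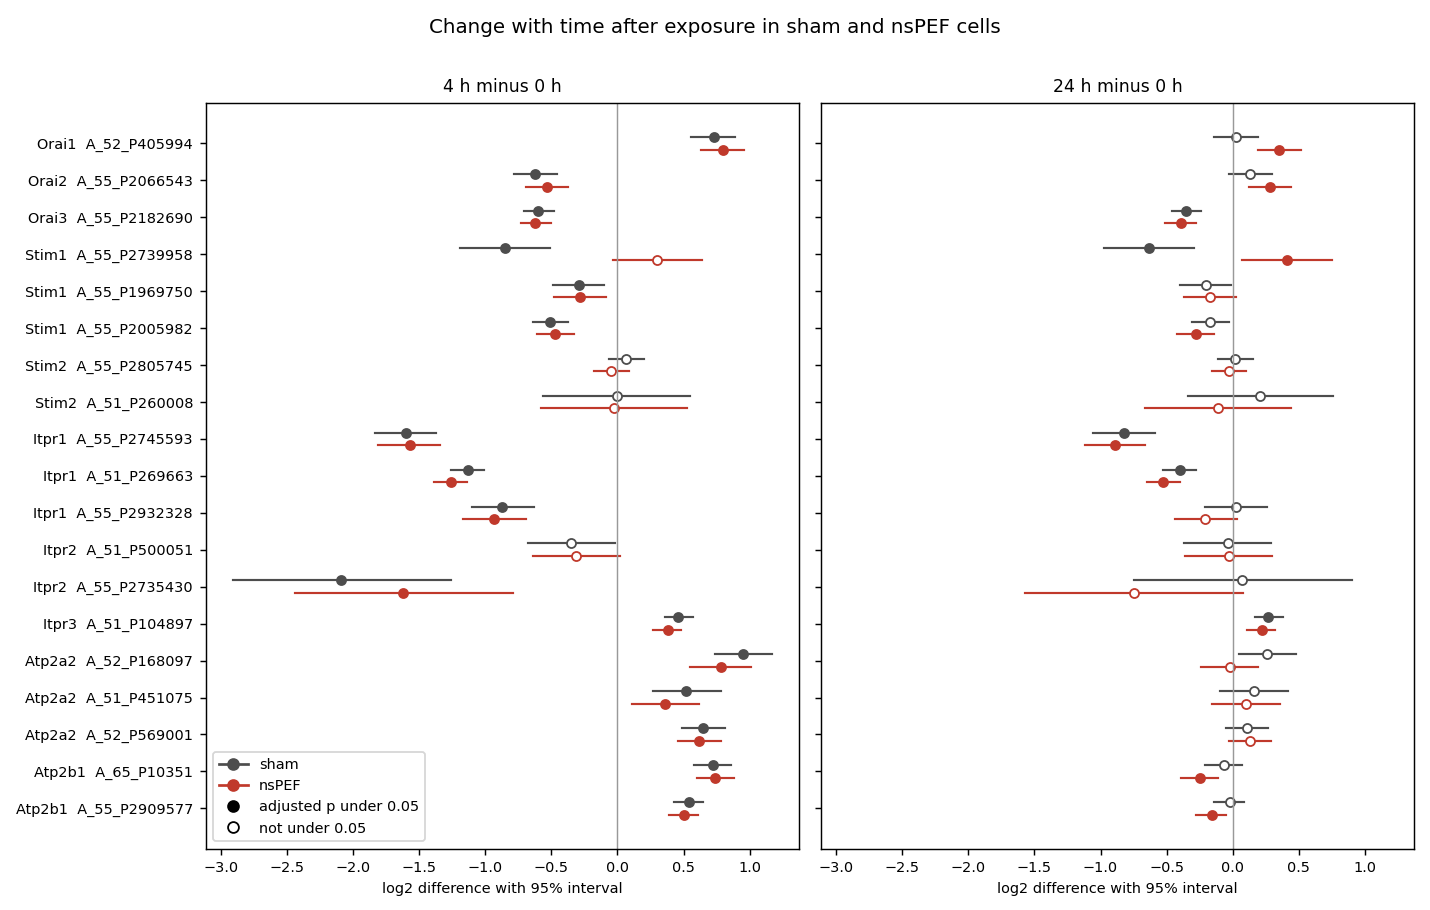
Log2 difference of each tested member probe between 4 h and 0 h (left) and between 24 h and 0 h (right), with sham in grey, nsPEF in red, 95% intervals as lines and filled points for an adjusted p under 0.05. At 4 h, 16 sham and 15 nsPEF points are filled, and at 24 h 5 and 10 are. Under scaling on spike-in spots the 24 h differences moved upward together, and 3 called sham and 5 called nsPEF differences turned positive.

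The changes of sham and nsPEF cells from 0 h to 4 h have no array in common, although they come from the same slides. Across the 19 member probes they had the same sign for 17, with a Pearson r of 0.94, beside 85.4% and 0.83 across all 37687 probes. From 4 h to 24 h the sign was shared by 17 with an r of 0.91, beside 83.8% and 0.80. Between 24 h and 0 h it was shared by 13 with an r of 0.43, beside 76% and 0.62. At 4 h against 0 h the probes that differed in sign were Stim1 A_55_P2739958 and Stim2 A_55_P2805745. The 19 include Itpr2 A_55_P2735430, which had the largest falls at 4 h (-2.09 in sham and -1.62 in nsPEF cells). No 4 h array showed that probe well above background, so its part in these values is not independent of the filter. The counts and correlations are descriptions across probes, which are not independent replicates.

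By 24 h much of the 4 h change was gone. In the sham cells 14 of the 19 member probes passed the test between 24 h and 4 h, 7 in each direction, beside 57.7% of all probes, and in the nsPEF cells 12 did, 6 in each direction, beside 56.6%. Between 24 h and 0 h 5 member probes passed in sham cells (1 higher, 4 lower; 36.6% of all probes) and 10 in nsPEF cells (4 higher, 6 lower; 42.2% of all probes). Over the 16 probes called at 4 h in sham cells the median share of the 4 h change that was left at 24 h was 29.2%, and over the 15 in nsPEF cells it was 41.7%. In each treatment both changes were taken against that treatment's own 0 h arrays. The probes were picked by the 4 h change, which is also the divisor, so a smaller change at 24 h is favoured in advance. Stim1 A_55_P2739958 (73.8%) is in the sham set only, and both sets include Itpr2 A_55_P2735430 (-3.47% and 46.1%). Itpr3 and Orai3 kept the largest shares among the genes with 1 probe, 58.9% and 58.6% in sham and 57.5% and 63.8% in nsPEF cells. Orai2 and both probes of Atp2b1 had passed their first level, with shares of -21.7%, -4.53% and -9.24% in sham and -52.6%, -32.7% and -33.6% in nsPEF cells, although in sham cells none of these 3 was called against 0 h. In nsPEF cells the difference of Atp2b1 A_55_P2909577 from 0 h was -0.16 ± 0.053 (adjusted p = 0.0173), a call lost without nsPEF 0 h replicate 4 or nsPEF 24 h replicate 2 or 4 (adjusted p from 0.051 to 0.0645), and that of A_65_P10351 was -0.25 ± 0.067 (adjusted p = 0.00566). Scaled on spike-in spots, the median of all probes lay 0.74 higher at 24 h than at 0 h in sham cells and 0.60 higher in nsPEF cells, with shifts of 0.70 and 0.40 against 4 h. The member calls then split into 13 higher and 0 lower (sham) and 12 and 3 (nsPEF) between 24 h and 4 h, and into 16 and 0 (sham) and 14 and 1 (nsPEF) between 24 h and 0 h.

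The treatment comparison asked whether nsPEF left a mark on these transcripts beyond that of handling. At 0 h no member probe was called (0 of 19), beside 0.127% of all probes (48). At an unadjusted p under 0.05 there were 2, Stim1 A_55_P2739958 and Atp2b1 A_55_P2909577, with differences of nsPEF minus sham of -0.46 and -0.11, beside 3769 of all 37687 probes. At 4 h 1 of the 19 was called, beside 3.31% of all probes, and at 24 h 3 were, 1 higher and 2 lower, beside 4.82%. The unadjusted test passed 5 and 8 member probes at those times, beside 7916 and 8310 of all 37687. The median size of the difference was 0.092, 0.082 and 0.13 for the member probes at 0, 4 and 24 h, against 0.10, 0.14 and 0.15 for all probes tested and 0.069, 0.10 and 0.11 for those bright on every array.

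**Figure D3:**
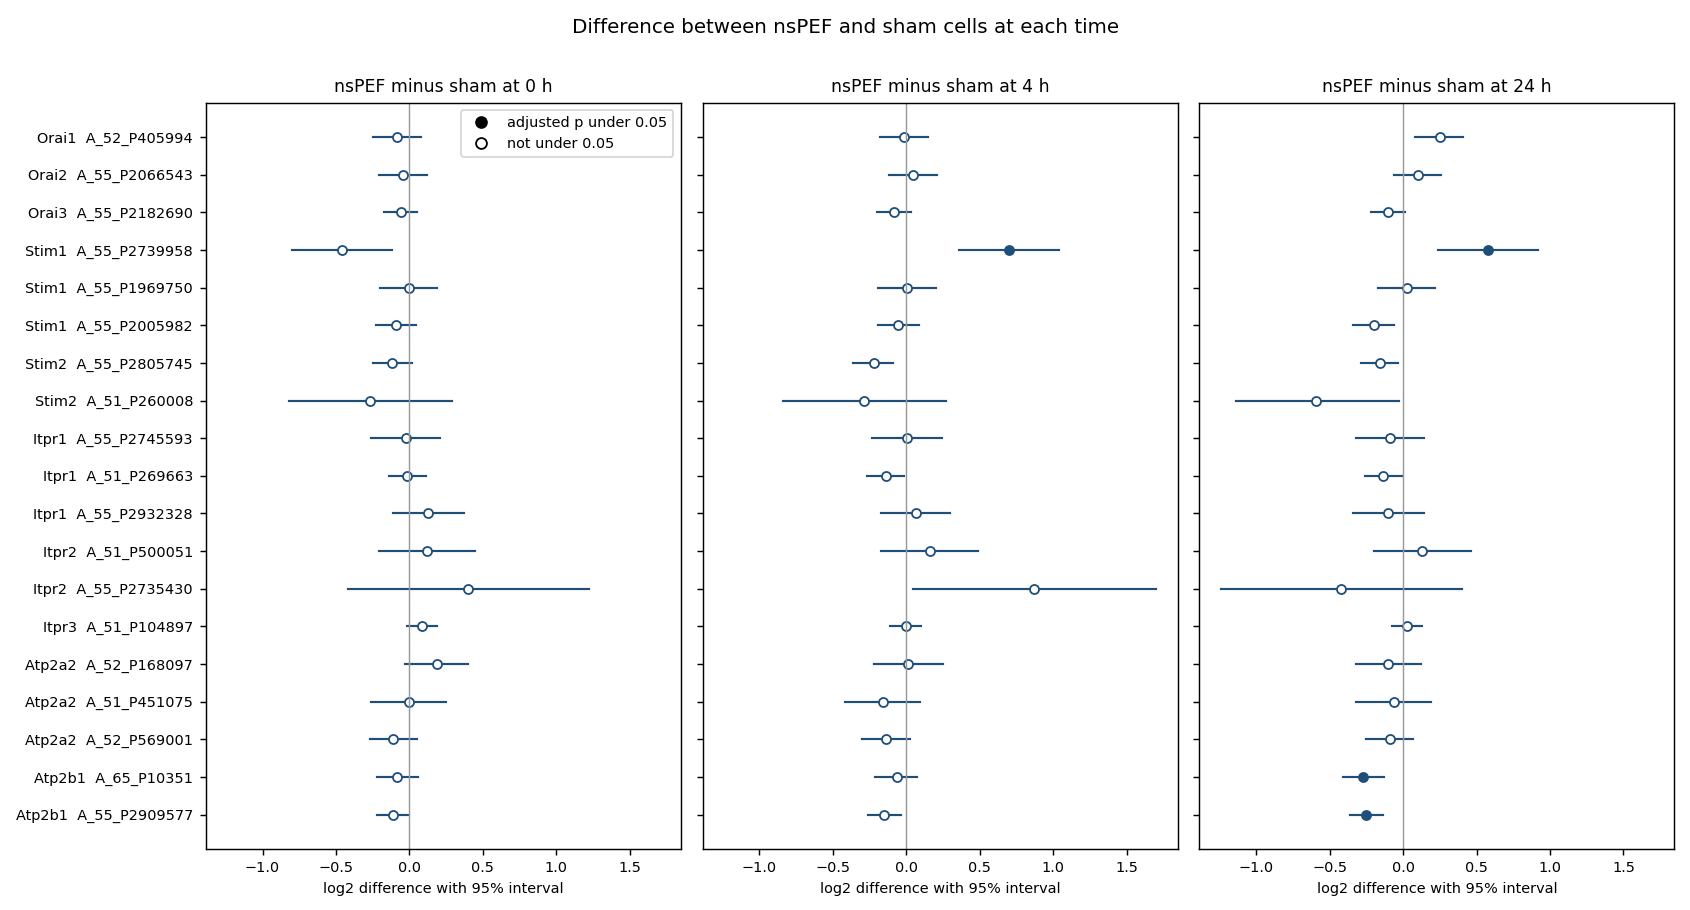
Log2 difference of nsPEF minus sham for each tested member probe at 0, 4 and 24 h, with 95% intervals as lines and filled points for an adjusted p under 0.05. No point is filled at 0 h, Stim1 A_55_P2739958 is at 4 h, and that probe and both probes of Atp2b1 are at 24 h.

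Stim1 A_55_P2739958 was the one member probe called at both later times. The probe A_55_P2739958 stood on the sham arrays at -3.41, -2.77, -3.15 and -3.42 (0 h), -4.10, -3.70, -4.18 and -4.19 (4 h) and -3.90, -3.72, -3.64 and -4.01 (24 h). The probe A_55_P2739958 in nsPEF cells stood at -3.76, -3.56, -3.64 and -3.62 (0 h), -3.33, -3.43, -3.27 and -3.35 (4 h) and -2.75, -3.13, -3.60 and -3.47 (24 h). The nsPEF arrays lay below the sham arrays at 0 h and above them at 4 h and 24 h, with no overlap at any time. The nsPEF cells were higher by 0.70 ± 0.16 at 4 h, which is 1.62-fold (interval 0.36 to 1.04; adjusted p = 0.0245), and by 0.58 ± 0.16 at 24 h (interval 0.24 to 0.92; adjusted p = 0.0449). The exact two-sided permutation test gave p = 0.0286 at each of the 3 times, the smallest that 4 against 4 arrays can give. Any probe without overlap gets this value, so it only restates the lack of overlap, and it is not adjusted for the number of probes or times. No brighter Stim1 probe was called between the treatments. The difference of A_55_P1969750 was 0.0074 (interval -0.19 to 0.20) at 4 h and 0.028 (interval -0.17 to 0.22) at 24 h, and that of A_55_P2005982 was -0.053 (interval -0.19 to 0.085) and -0.20 (interval -0.34 to -0.063; adjusted p = 0.0818). The last passed without nsPEF 24 h replicate 1 (adjusted p = 0.0257), with array weights (0.00953), with marked spots kept (0.0416) and with the deposited table (0.0413), each as a lower level in nsPEF cells. Under the other 12 of 15 processing settings it stayed uncalled. With quantile normalization neither call of the dim probe remained (0.40 and 0.35, adjusted p = 0.183 and 0.229). The call at 24 h was also lost with spike-in scaling (adjusted p = 0.129), normexp (0.0958), only the arrays compared (0.17) and an intensity trend (0.0625). Both calls hung on single arrays as well. The one at 4 h was lost without sham 4 h replicate 1, 3 or 4 or nsPEF 4 h replicate 3 (adjusted p from 0.0504 to 0.0617), and the one at 24 h was lost on leaving out 17 of the 24 arrays in turn, that is with each except sham 0 h replicates 1, 2 and 4, nsPEF 0 h replicate 2, sham 4 h replicates 2 and 4 and nsPEF 24 h replicate 3 (adjusted p from 0.0504 to 0.127).

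Atp2b1 was the member gene whose every probe was called between the treatments, at 24 h. The difference of nsPEF minus sham was -0.25 ± 0.053 for A_55_P2909577 (interval -0.36 to -0.14; adjusted p = 0.0123) and -0.27 ± 0.067 for A_65_P10351 (interval -0.41 to -0.13; adjusted p = 0.0299), which are 1.19-fold and 1.2-fold lower levels in nsPEF cells. At 4 h the differences were -0.15 and -0.066 and at 0 h -0.11 and -0.084, none of them called (adjusted p from 0.123 to 0.757). For A_55_P2909577 the call at 24 h remained when any 1 array was left out, and was lost when all arrays with replicate number 2 (adjusted p = 0.157) or 3 (adjusted p = 0.123) were. For A_65_P10351 it was lost without sham 24 h replicate 1, 2 or 3 or nsPEF 24 h replicate 2 or 4 (adjusted p from 0.0602 to 0.112). With normexp background correction, with spike-in scaling and with only the 8 arrays compared in the fit, neither probe passed (adjusted p from 0.0638 to 0.155). With centring by spot row A_65_P10351 did not pass either (-0.25, adjusted p = 0.072).

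Other member probes came near the threshold between the treatments. Orai1 was higher in nsPEF cells at 24 h by 0.25 ± 0.079 (interval 0.081 to 0.41; adjusted p = 0.0752), and it passed without sham 24 h replicate 4 (0.32, adjusted p = 0.0181) or nsPEF 24 h replicate 1 (0.33, adjusted p = 0.00793). Stim2 A_55_P2805745 was lower at 4 h by 0.22, that is a difference of -0.22 ± 0.063 (adjusted p = 0.0542) with all 4 nsPEF arrays below all 4 sham arrays. It passed without sham 0 h replicate 3, nsPEF 0 h replicate 2, nsPEF 4 h replicate 2 or nsPEF 24 h replicate 1 (adjusted p from 0.0361 to 0.0479). It also passed with no filter (adjusted p = 0.024), marked spots kept (0.0301), plain analysis of variance (0.0418), array weights (0.0426), the deposited table (0.0297), 1 value per gene (0.0338) and an intensity trend (0.0342). Under the other 9 of 16 settings it stayed uncalled, and with spike-in scaling the difference was -0.02. The Itpr1 probe A_51_P269663 differed by -0.14 at 4 h and at 24 h (adjusted p = 0.185 and 0.188), and Itpr3 by -0.0015 (interval -0.11 to 0.10) at 4 h. For Atp2a2 A_52_P569001 the difference at 4 h was -0.14 (interval -0.30 to 0.023).

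Whether the effect of nsPEF changed with time was tested by the interaction of time and treatment. Of the 19 member probes 1 passed, Stim1 A_55_P2739958 (adjusted p = 0.0369), beside 0.377% of all probes, and 2 passed at an unadjusted p under 0.05, the second being Orai1 (adjusted p = 0.214), beside 6291 of all 37687 probes. For the other Stim1 probes the adjusted p was 0.984 and 0.567. The call was lost on leaving out 13 of the 24 arrays in turn, with an adjusted p of up to 0.0745 and as low as 0.0136 for the arrays that kept it.

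Other genes of calcium handling were taken in 8 lists with 124 genes, of which 121 were on the array and 104 were tested, each by its brightest tested probe. The calls were few between the treatments and many with time, as for the members. At 0 h 0 of 104 were called between nsPEF and sham, at 4 h 3 were (2.88%), one of them Plcb4 that lay above background in the nsPEF group alone, and at 24 h 2 were (1.92%). Of all tested probes 0.127%, 3.31% and 4.82% were called at these times. In the sham cells 35 were higher and 38 lower at 4 h than at 0 h (70.2% called, beside 59.1% of all tested probes and 69.6% of those bright on every array), and 15 were higher and 24 lower at 24 h than at 0 h (37.5% called, beside 36.6% and 44.9%).

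Between the treatments at 4 h, Trpc6, a cation channel opened by diacylglycerol, was higher in nsPEF cells by 0.91 ± 0.17 (adjusted p = 0.0103). Plcb4, a phospholipase C that makes inositol trisphosphate, was well above background on 2 of 4 nsPEF arrays at 4 h and on no other array of the 24. With each sham array set at the lowest signal of any probe well above background on it, the mean of Plcb4 was 2.11-fold higher in nsPEF cells. This is not a strict bound, since the nsPEF mean includes arrays below background. Plcb4 was tested only because of those 2 arrays, so its call is not independent of the filter. Camk2g, a calmodulin-dependent kinase, was lower, with a difference of -0.25 ± 0.056 (adjusted p = 0.0187). At 24 h Atp2b2, another plasma membrane calcium pump, was higher by 1.03 ± 0.25 (adjusted p = 0.025), the opposite direction from Atp2b1, and Septin4 was lower, with -0.18 ± 0.048 (adjusted p = 0.037). The Atp2b2 probe was dim, though well above background on all 24 arrays. Its means at 24 h were -3.44 in sham cells (SD 0.40) and -2.42 in nsPEF cells (SD 0.20). The calls of these listed genes were not tried under the other settings, unlike those of the members.

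The largest measured rises of the lists at 4 h in sham cells were those of Rcan2, an inhibitor of calcineurin (3.01 ± 0.074; adjusted p = 1.5e-17), Nfatc2, a transcription factor that calcineurin activates (2.81 ± 0.55; adjusted p = 1.9e-04; well above background on 2 of 4 arrays at 0 h and 4 of 4 at 4 h), and Camk2d (2.12 ± 0.064; adjusted p = 2.8e-16). Falls were those of Nfatc4 (-2.82 ± 0.15; adjusted p = 1.5e-12) and Plch2 (-2.05 ± 0.32; adjusted p = 1.4e-05), the latter well above background on 4 of 4 arrays at 0 h and 1 of 4 at 4 h, and of Trpc7 (adjusted p = 6.6e-05). Trpc7 was well above background on 3 of 4 sham arrays at 0 h, 4 of 4 at 24 h and no other array, so its call is not independent of the filter. It was 2-fold lower with each 4 h array set at the lowest signal of any probe well above background on it, which is not a strict bound. At 24 h Rcan2 was still higher than at 0 h by 1.01 ± 0.074 (adjusted p = 2.1e-09), Slc8b1, the mitochondrial sodium and calcium exchanger, by 0.75 ± 0.19 (adjusted p = 0.00455) and Mcoln1, a channel of the lysosome, by 0.43 ± 0.063 (adjusted p = 1.9e-05). Lower at 24 h were Cracr2b, a regulator of Orai channels (-0.75 ± 0.11; adjusted p = 1.2e-05), Fkbp1b, a protein bound to ryanodine receptors (-0.70 ± 0.081; adjusted p = 1.1e-06), and Rcn3, a calcium-binding protein of the reticulum (-0.70 ± 0.06; adjusted p = 2.0e-08).

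By list, the regulators of store-operated entry had 5 genes higher and 4 lower of 14 tested at 4 h in sham cells, and the release channels with their regulators 8 and 4 of 17. The other pumps with their regulators had 4 and 2 of 8, and the exchangers 3 and 2 of 8. In mitochondrial calcium uptake 3 were higher and 7 lower of 12, and among the calcium-binding proteins of the reticulum 4 and 8 of 17. The phospholipase C enzymes had 1 higher and 3 lower of 10, and the list of calmodulin, calcineurin and NFAT 7 and 8 of 18. The median differences of the lists lay between -0.17 and 0.23, beside -0.006 for all probes tested.

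**Figure D4:**
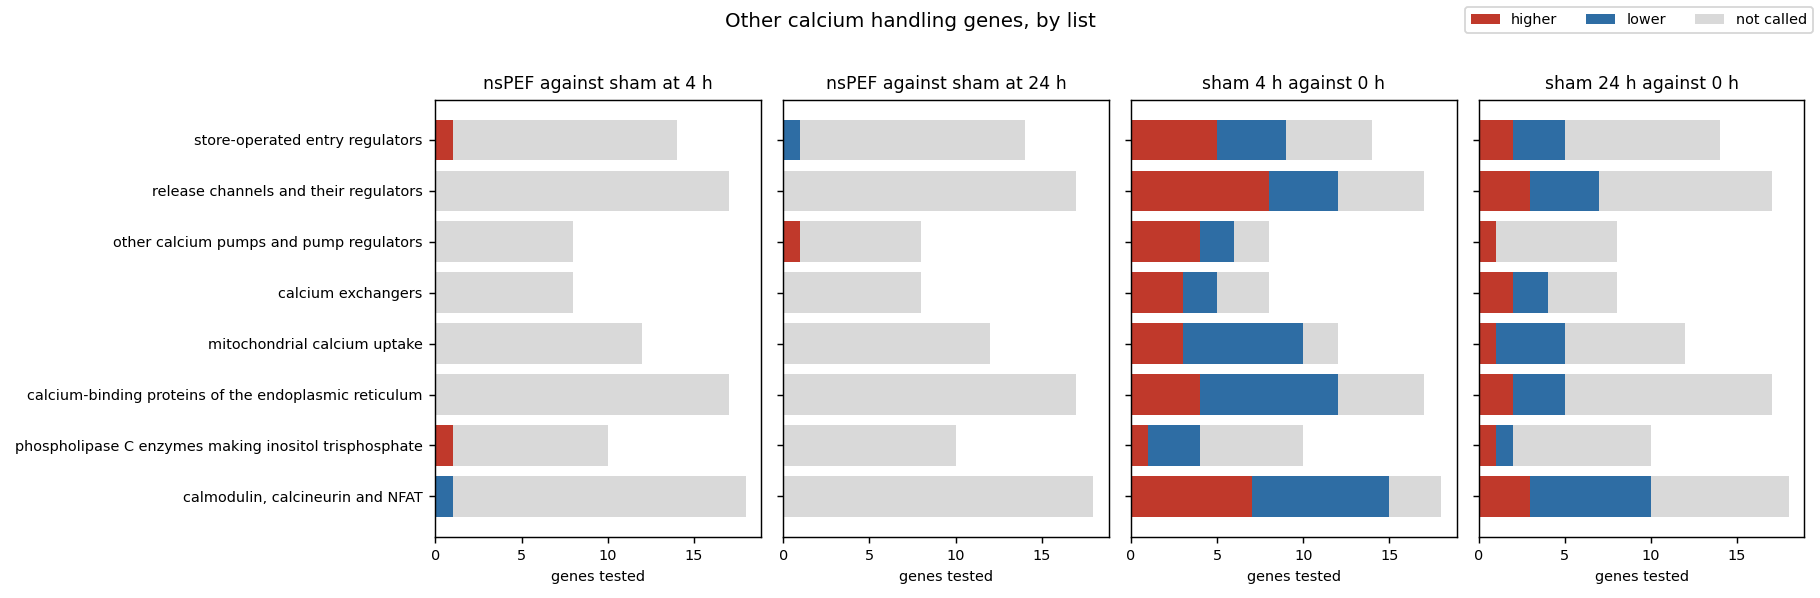
Number of genes of 8 other calcium lists that were called higher (red), called lower (blue) or not called (grey), in 4 comparisons, with 1 probe per gene and the calls at an adjusted p under 0.05. The bars of nsPEF against sham hold 3 called genes at 4 h and 2 at 24 h, and those of sham cells hold 35 higher and 38 lower at 4 h and 15 higher and 24 lower at 24 h.

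Among 12344 genes that every array showed well above background, those closest to the member probe with the largest rise in sham cells, Atp2a2 A_52_P168097, were B3gntl1 (Pearson r = 0.965), Tor4a (0.953) and Ern1 (0.948), a sensor of unfolded protein in the reticulum, over 23 arrays. The probe with the largest fall, Itpr2 A_55_P2735430, was well above background on 7 of 24 arrays, so no like genes are given for it. All of these points share the time points and slides, and the correlations are descriptions.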

How the data were processed

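TM3 cells, sham or nsPEF, were measured at 0, 4 and 24 h on 24 one-colour Agilent arrays, 4 per group, grouped by their labels. The authors scanned the arrays with Agilent Feature Extraction 12.0 and deposited its processed signal, a background-corrected intensity for each spot. They also deposited a table of log2 values, shifted to the 75th percentile and set against the median of each probe, which was used only as an alternative. The members and lists were chosen with earlier results of these data known.

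Control spots and spots marked as outliers were left out, spots of a probe were averaged, and the log2 of the mean minus the 75th percentile of the array over 56605 probes was taken. The nsPEF arrays had more marked spots, 257 to 406 at 4 h (sham 96 to 137) and 348 to 508 at 24 h (sham 134 to 192). At 0 h the numbers were 146 to 220 (sham 141 to 174). With marked spots kept, 36.2% of all probes called between the treatments at 4 h were higher, beside 51.6%. At 24 h the share was 36.8%, beside 54.8%. Symbols came from RefSeq accessions (GRCm38.p6), since the files used here pair probes with accessions. No non-control spot was saturated (0), and the number of arrays limits the precision. limma 3.58.1 in R 4.3.3 was fitted to 6 group means over all 24 arrays, with Benjamini-Hochberg adjustment over 37687 probes and a threshold of 0.05, after tests on simulated data. Between 2 groups of 4 the smallest exact permutation p is 0.0286. All probes of the members are named, and of the other calcium genes up to 3 that rose most and 3 that fell most in a comparison, each by its tested probe with the highest mean. Alternatives were quantile, spike-in and other percentile scaling, normexp (offset 50, on median signals, since the mean signal was not used here), other filters, marked spots kept, plain analysis of variance, only the arrays compared, a replicate block, array weights, the deposited table, 1 value per gene, centring by spot row, and each array and each replicate number left out. The 75th percentile over spots and an intensity trend were added after seeing the data.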

Additional observations from a re-analysis of the deposited data

Results flagged for a closer look

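In 7 of the 119 groups of 4 arrays, 1 array stood apart from the other 3 by a gap that is large for the range of its group, where chance gives about 1 in 20 such groups. The gap, as a share of the range, was 0.832 for Orai1 in sham 0 h replicate 3 (highest), 0.918 for Stim1 A_55_P1969750 in sham 24 h replicate 4 (highest) and 0.895 for Stim1 A_55_P2005982 in nsPEF 24 h replicate 1 (highest). It was 0.932 for Stim2 A_51_P260008 in nsPEF 4 h replicate 1 (lowest) and 0.849 for Itpr2 A_55_P2735430 in nsPEF 4 h replicate 4 (highest, below background). For Itpr2 A_51_P500051 it was 0.99 in nsPEF 24 h replicate 3 (highest), and for Itpr2 A_52_P494207 it was 0.891 in sham 0 h replicate 4 (lowest, below background).

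The effect of nsPEF on Stim1 A_55_P2739958 differed between the times by the interaction test (limma adjusted p = 0.0369).

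The Itpr2 probe that was not tested, A_52_P494207, was well above background on 1 array, nsPEF 24 h replicate 3, with a relative log2 signal of -3.99, and on that array Itpr2 A_51_P500051 was high as well, at 2.01 beside 0.93 to 0.94 on the other 3.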

How the results depend on the processing

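Of 171 member differences under 44 other settings, 7170 values kept their side of the threshold, of which 196 were uncalled and changed sign, 128 lost the call, 110 gained it, and 26 changed sign where a call was made. The cause was not tested. Counts of called member probes moved as follows. Between nsPEF and sham at 4 h (1) there were 0 with quantile normalization and 2 each with spike-in scaling, no filter, marked spots kept, plain analysis of variance, array weights, the deposited table and an intensity trend. At 24 h (3) there were 0 with spike-in scaling, normexp and only the arrays compared, 6 with array weights and 1 with 1 value per gene. Between 24 h and 0 h in sham cells (5) there were 16 with spike-in scaling, 8 with array weights and 3 with 1 value per gene. The interaction (1) gave 0 with quantile, normexp, no filter, only the arrays compared, 1 value per gene and an intensity trend, and 2 with array weights. With 1 value per gene the count is out of 10 genes, which gave 8 for 4 h against 0 h in sham and 8 in nsPEF, 7 for 24 h against 4 h in each and 6 for nsPEF 24 h against 0 h. Leaving out arrays gave 0 to 0, 0 to 2 and 0 to 4 between nsPEF and sham at 0, 4 and 24 h. In sham cells it gave 15 to 17 (4 h against 0 h), 13 to 15 (24 h against 4 h) and 5 to 7 (24 h against 0 h), in nsPEF cells 13 to 16, 10 to 14 and 8 to 11, and 0 to 2 for the interaction.

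Sign changes came with quantile normalization for Itpr3 between 24 h and 4 h (0.035 in sham, 0.03 in nsPEF). The others came with spike-in scaling, which rests on 169 spots of 6 probes. Between 24 h and 4 h they were, in sham, Itpr3 0.49, Atp2a2 A_51_P451075 0.32 and A_52_P569001 0.15, Stim2 A_55_P2805745 0.64 and Atp2b1 A_55_P2909577 0.12, and in nsPEF, Itpr3 0.27. Between 24 h and 0 h in sham they were Itpr1 A_51_P269663 0.33, Itpr2 A_51_P500051 0.70, Stim1 A_55_P1969750 0.53, A_55_P2005982 0.57 and A_55_P2739958 0.11, Orai3 0.39, and Atp2b1 A_55_P2909577 0.71 and A_65_P10351 0.67. In nsPEF they were Itpr1 A_51_P269663 0.0086 and A_55_P2932328 0.33, Itpr2 A_51_P500051 0.50, Atp2a2 A_52_P168097 0.51, Stim1 A_55_P1969750 0.36 and A_55_P2005982 0.26, Orai3 0.14, Stim2 A_55_P2805745 0.51, and Atp2b1 A_55_P2909577 0.37 and A_65_P10351 0.29. Of all probes called between nsPEF and sham at 4 h, 51.6% were higher, beside 16.5% with quantile, 99.1% with spike-in scaling and 78.2% with the percentile over detected probes. With no filter, which lets in dimmer probes, 86.9% were higher at 4 h and 85.1% at 24 h. The median of all differences was then 0.13 at both times. With a filter of all 4 arrays 40.3% and 47.7% were higher. Probes called higher in nsPEF cells include dim ones, such as Stim1 A_55_P2739958, Plcb4 and Atp2b2. Whether this shift bears on their calls was not tested.

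Same-numbered arrays of sham and nsPEF had correlated deviations of -0.047 to 0.077 at 0 h, 0.022 to 0.10 at 4 h and -0.027 to 0.079 at 24 h. For other-numbered arrays the correlations were -0.069 to 0.085, -0.075 to 0.038 and -0.17 to 0.085. The same-numbered ones were thus small, though all positive at 4 h. The labels tie no number to a cell suspension, so the numbers were not taken to pair the samples. With a replicate block the counts were 0, 1 and 3 between nsPEF and sham at 0, 4 and 24 h, 16, 14 and 7 in sham and 15, 12 and 10 in nsPEF for the time comparisons in the order above, and 1 for the interaction. The slide as a block could not be fitted between time points. Signals near background limit Stim1 A_55_P2739958 and Itpr2 A_55_P2735430.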
